A study of Mus musculus with 8 samples.

Results

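The genes that store iron, carry it across membranes and release it from haem were followed in cultured mouse kidney tubular epithelial cells lacking Aldh2, the mitochondrial aldehyde dehydrogenase. The 10 genes were chosen by symbol, and all 10 were found among the 14145 genes of the deposited table. They are the ferritin subunits Fth1 and Ftl1, the haem-degrading enzymes Hmox1 and Blvrb, the importers Tfrc and Slc11a2, the exporter Slc40a1, the ferritin-turnover receptor Ncoa4, and the iron regulatory proteins Ireb2 and Aco1. The 4 KO libraries came from primary cells of Aldh2TEC-KO mice and the 4 WT libraries from primary cells of Aldh2Ctrl mice. Both were grown in serum-containing medium with no treatment. The genotype labels of KO 1 to 4 name ALDH2, ALDH3, ALDH4 and ALDH5 in turn, so groups follow the sample titles. What drives the deletion, how old the mice were and whether each library is a separate animal is not stated in the labels used. The p-values therefore measure spread among libraries, part of which may be technical.

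Ferritin is a hollow shell of heavy and light chains. The heavy chain oxidises ferrous iron and the light chain helps to lay it down as a mineral, so that iron is held out of reach of peroxide chemistry. Transferrin-bound iron enters cells through the transferrin receptor and crosses the endosomal membrane through the divalent metal transporter, and ferroportin is the known cellular exporter. When iron is scarce the iron regulatory proteins bind hairpins in messenger RNAs called iron-responsive elements, which blocks translation where the hairpin lies in the 5′ UTR and protects the messenger from decay where it lies in the 3′ UTR. Tubular cells of the kidney take up filtered iron and haem proteins, and haem oxygenase and ferritin are known for being induced in them by haem and oxidants.

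The iron-responsive elements are shown because they mark members whose translation (5′ UTR) or messenger stability (3′ UTR) the iron regulatory proteins are known to control. The search, on the sense strand of coding transcripts, was for a bulged C, 5 bases, the loop CAGTGN with its last base not G, and 5 bases that pair with the first 5 (G-T pairs allowed). The motif stood in the 5′ UTR of 0.158% of 12058 genes searched and in the 3′ UTR of 0.599% of 12186. It was found in the 5′ UTR of Fth1, Ftl1 and Slc40a1 and at 4 places in the 3′ UTR of Tfrc. The sequences below are from GENCODE M21 transcripts (GRCm38), with 5 bases added on each side and the loop in capitals.
Fth1 5′ UTR: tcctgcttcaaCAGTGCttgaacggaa
Ftl1 5′ UTR: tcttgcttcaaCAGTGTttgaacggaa
Slc40a1 5′ UTR: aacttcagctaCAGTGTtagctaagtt
Tfrc 3′ UTR, IRE 1: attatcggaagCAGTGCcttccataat
Tfrc 3′ UTR, IRE 2: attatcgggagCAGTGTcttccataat
Tfrc 3′ UTR, IRE 3: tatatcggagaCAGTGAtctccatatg
Tfrc 3′ UTR, IRE 4: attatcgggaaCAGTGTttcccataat
The Fth1 element lies at chr19:9982733-9982759 on the plus strand and is carried by 4 of the 5 coding transcripts of the gene. That of Ftl1 lies at chr7:45459780-45459806 on the minus strand, in 1 of 2 coding transcripts, and that of Slc40a1 at chr1:45925466-45925492 on the minus strand, in 1 of 4. The elements of Tfrc lie at chr16:32631220-32631246, chr16:32631599-32631625, chr16:32631664-32631690 and chr16:32631711-32631737 on the plus strand, in 1 of 3 coding transcripts. No match was found in the UTRs of the other 6 members in these letters. All 5 stem pairs had to match, so an element of another form would be missed, and these 6 cannot be said to lack one. The deposited values are sums over all transcripts of a gene, so they do not show how much of each messenger carries its element, and they do not measure translation.

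Values are the authors' FPKM (reads or read pairs divided by gene length and by library depth), with depths recovered from the values of 17050000 to 18760000 reads or fragments per library. Aldh2 (chromosome 5, 121566027 to 121593824 in GRCm38) was at 0.879 to 1.64 FPKM in KO and at 23.7 to 31.1 FPKM in WT libraries, a KO mean of 4.71% of the WT mean. By Xist and Y-linked transcripts KO 1 and KO 2 were female, while KO 3, KO 4 and the 4 WT libraries were male. KO 3 and KO 4 also differed from the rest in the balance of short and long genes: the median deviation of the shortest quartile of genes minus that of the longest quartile was 0.69 and 0.50 on the log2 scale in KO 3 and KO 4, 0.26 and -0.22 in KO 1 and KO 2, and -0.39 to -0.15 in WT libraries. Of 13 tubular epithelial markers 11 were measured, 6 with higher and 5 with lower KO means on the log2 scale. Their sums, 866.9 to 6202 FPKM in KO and 1416 to 3041 FPKM in WT libraries, were mostly the keratins Krt8 and Krt18, while the epithelial adhesion genes Cdh1 and Epcam averaged 78.8 and 61.4 FPKM in KO and 162.9 and 132.1 FPKM in WT libraries, with overlap. Cubn and Slc34a1 of the proximal tubule were not in the analysis. Lrp2 and Aqp1, also of the proximal tubule, averaged 7.31 and 1.18 FPKM in KO and 4.21 and 0.717 FPKM in WT libraries, with overlap. All 15 macrophage markers were measured, 14 with higher and 1 with a lower KO mean on the log2 scale (44.5% of all genes were higher). Their median log2 fold change was 1.52, and each overlapped between KO and WT libraries. The markers summed to 590.6, 1767, 232.7 and 1143 FPKM in KO 1 to 4 and to 1066, 95.7, 110.6 and 119.7 FPKM in WT 1 to 4, with Itgam at 0 in WT 4. Of the WT 4 sum 71.6 FPKM was Cd14, and without Cd14 the sums were 583.6, 1727, 220.0 and 1111 FPKM in KO 1 to 4 and 1048, 83.3, 100.9 and 48.1 FPKM in WT 1 to 4; Cd14 was singled out after its values were seen. Endothelial markers (3 of 7 measured) summed to 1.55 to 3.29 FPKM in KO and 5.10 to 7.16 FPKM in WT libraries, all 3 with lower KO means. Of the fibroblast markers 5 of 8 were measured, 1 with a higher and 4 with lower KO means (median log2 fold change -1.47). Their sum, 586.5 to 1765 FPKM in KO and 132.9 to 1174 FPKM in WT libraries, was mostly Acta2, the one higher. Without Acta2 the sums were 19.6, 25.8, 36.0 and 37.1 FPKM in KO 1 to 4 and 447.9, 52.8, 66.8 and 34.5 FPKM in WT 1 to 4, WT 1 being far the highest. Acta2 was singled out after its values were seen. Pdgfrb and Col3a1 were lower in KO without overlap. None of the 7 erythroid markers, the globins among them, was among the genes analysed here.

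Ferritin and the haem-degrading enzymes had higher means in KO cells, the transferrin receptor and iron regulatory protein 2 lower means, and none of the 10 genes passed the test over all genes. In the fit of log2(FPKM + 1) with limma, with Benjamini-Hochberg adjustment over 14145 genes, the members' adjusted p-values ran from 0.148 to 0.929 (0 called by limma; 11 genes, 0.0778% of all genes, passed an adjusted p below 0.05). At an unadjusted limma p below 0.05 stood 6 of the 10 members, 4 higher (Fth1, Ftl1, Hmox1, Blvrb) and 2 lower (Tfrc, Ireb2), against 19.2% of all genes (7.58% higher and 11.6% lower). The KO and WT libraries did not overlap for 2 of 10 members, Ftl1 and Hmox1, against 11.6% of all genes (4.76% higher). Together 4 members had higher and 6 lower KO means on this scale, against 44.5% of all genes higher, and their median log2 fold change was -0.06, as was that of all genes. In bulk samples, fewer cells of a type and less RNA per cell cannot be told apart.

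**Figure D1:**
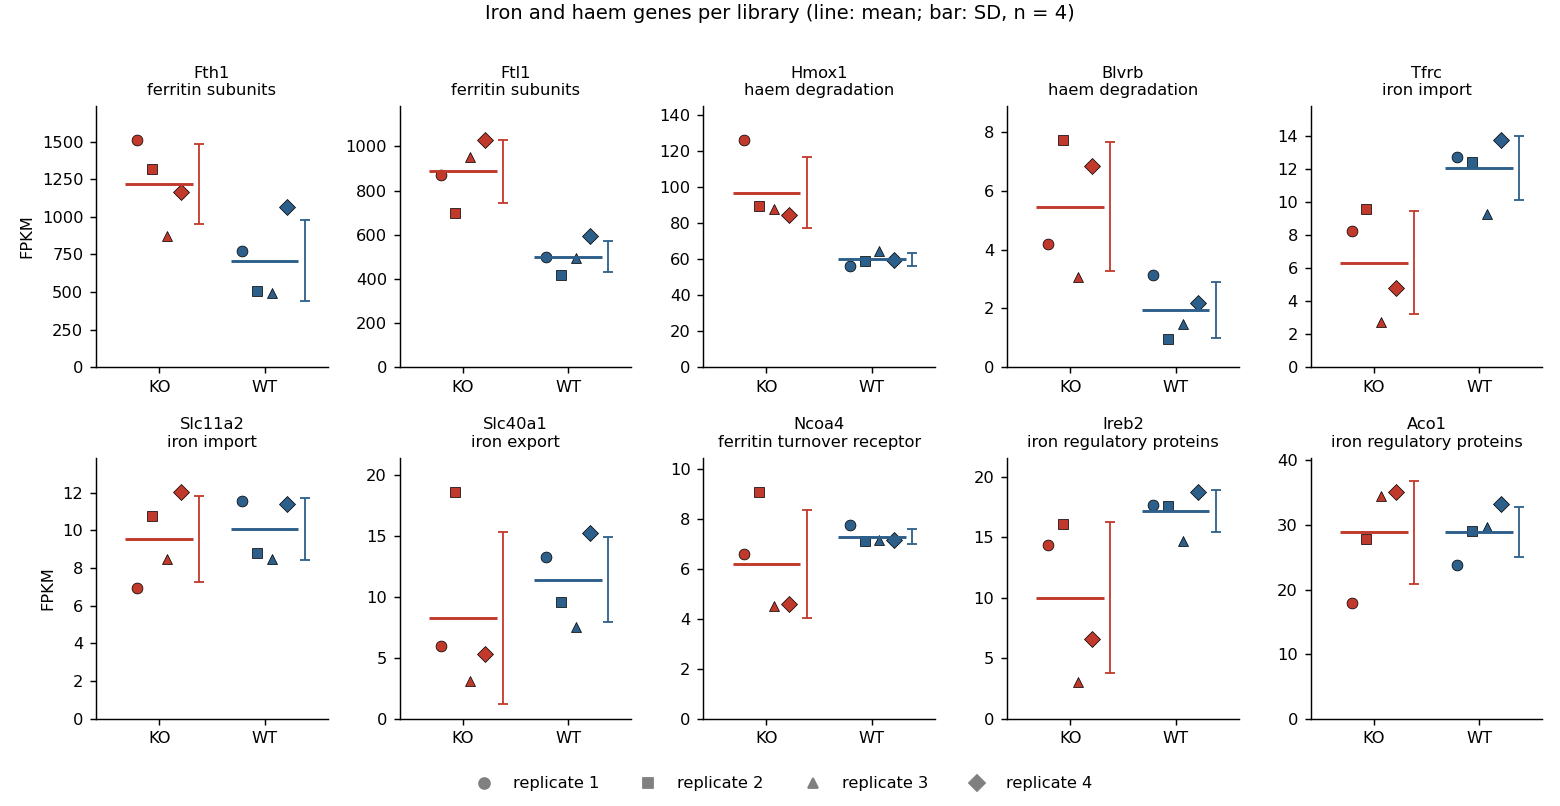
FPKM of the 10 genes (y axes, each from 0) in the 4 KO and 4 WT libraries (x axes); points are libraries, lines group means and bars the SD (n = 4). Ftl1 and Hmox1 are the 2 genes whose KO and WT libraries do not overlap, and the lowest Tfrc and Ireb2 values are those of KO 3 and KO 4.

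Fth1, the ferritin heavy chain (ENSMUSG00000024661, chromosome 19, 9982703 to 9985092, plus strand), was the most abundant of the 10. It read 1510, 1317, 874.8 and 1165 FPKM in KO 1 to 4 and 773.5, 503.6, 490.4 and 1062 FPKM in WT 1 to 4. WT 4 lay above KO 3, so the groups overlapped at 1 library of each. The means were 1217 ± 268.1 FPKM in KO and 707.3 ± 269.9 FPKM in WT libraries (SD, n = 4 each), a log2 fold change of 0.83 (SE 0.33, limma adjusted p = 0.232).

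Ftl1, the ferritin light chain (ENSMUSG00000050708, chromosome 7, 45457944 to 45459884, minus strand), read 872.2, 696.5, 952.7 and 1029 FPKM in KO 1 to 4 and 500.3, 418.9, 492.9 and 592.8 FPKM in WT 1 to 4. Each KO library lay above each WT library, KO 2 being the lowest KO and WT 4 the highest WT. The log2 fold change was 0.82 (SE 0.24, limma adjusted p = 0.160). The Ftl1 values rest on 16696 to 25032 recovered reads per KO library and 9569 to 13774 per WT library. Near-identical copies make the split of reads uncertain: 5 other annotated genes align to Ftl1 at 95% identity or more over at least 500 bases, 2 of them in the table. Ftl1-ps1, a coding copy on chromosome 13, was at 15.7 to 23.9 FPKM in KO and 7.53 to 11.3 FPKM in WT libraries, and the pseudogene Gm15590 at 2.46 to 4.89 FPKM in KO and 1.49 to 3.97 FPKM in WT libraries, both far below Ftl1.

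The balance of heavy to light chain messenger differed between libraries more than between groups. The ratio of Fth1 to Ftl1 FPKM was 1.73, 1.89, 0.918 and 1.13 in KO 1 to 4 and 1.55, 1.20, 0.995 and 1.79 in WT 1 to 4. Both groups held libraries near equal levels and libraries with clearly more Fth1. The ratio depends on the gene lengths the authors used, and for Fth1 the deposited span of 2390 bp differs from the 4501 bp of GENCODE M21. The position of the other 9 members was the same in both. Read numbers of Fth1 are therefore not given. The limma-voom fits still took its reads from the GENCODE M21 length, which may not be that of the authors (log2 fold change 0.82 without and 1.02 with sample weights).

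Hmox1, haem oxygenase 1, opens the haem ring and frees its iron (ENSMUSG00000005413, chromosome 8, 75093621 to 75100589, plus strand). It read 126.3, 89.5, 87.9 and 84.8 FPKM in KO 1 to 4 and 56.5, 59.1, 64.8 and 59.5 FPKM in WT 1 to 4. The WT libraries were closely grouped, KO 2 to 4 lay together above them, and KO 1 stood above the other KO libraries. Hmox1 had the lowest adjusted p of the 10 (log2 fold change 0.67, SE 0.18, limma adjusted p = 0.148).

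Blvrb, a biliverdin reductase and flavin reductase (ENSMUSG00000040466, chromosome 7, 27447978 to 27466144, plus strand), had the lowest level and the largest fold of the members. Its values were 4.18, 7.74, 3.07 and 6.85 FPKM in KO 1 to 4 and 3.14, 0.970, 1.46 and 2.20 FPKM in WT 1 to 4, with KO 3 just under WT 1. The means were 5.46 ± 2.20 FPKM in KO and 1.94 ± 0.946 FPKM in WT libraries (SD, n = 4 each), a KO mean of 281% of the WT mean. On the log2(FPKM + 1) scale, which understates changes of low genes, the difference of Blvrb was 1.12 (SE 0.31, limma adjusted p = 0.154). In reads it stood at 160 to 385 per KO library and 46 to 151 per WT library; at 46 reads in WT 2 the exact Poisson interval (95%, counting error only) was 33.7 to 61.4. In the authors' deposited table Blvrb is the one member with an up mark, at a log2 fold change of 1.56, a p-value of 0.000258 and an adjusted p-value of 0.0773. The authors' adjusted p-values of Fth1, Ftl1, Hmox1 and Tfrc are 0.721, 0.657, 0.819 and 0.779. Slc11a2 and Aco1 lie above 0 there, at log2 fold changes of 0.022 and 0.11. The KO libraries had the same order by Blvrb and by summed macrophage markers, with or without Cd14: KO 2, KO 4, KO 1 and KO 3 from high to low. Among WT libraries WT 1 was highest by both. WT 4, second by Blvrb, was second by the full sum and last by the sum without Cd14. The part of macrophage RNA in the Blvrb difference was not tested.

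Of the other genes of haem degradation and transport, 14 of 18 listed were measured, 8 with higher and 6 with lower KO means (44.5% of all genes were higher). Of these genes 0 passed limma's test over all genes (2 at an unadjusted p below 0.05, 1 higher and 1 lower, against 19.2% of all genes). Slc48a1, which carries haem out of endosomes and lysosomes, read 75.5 to 101.1 FPKM in KO and 51.5 to 63.8 FPKM in WT libraries without overlap. Flvcr1, the plasma membrane haem exporter, was at 1.44 to 3.06 FPKM in KO and 4.18 to 5.42 FPKM in WT libraries, again without overlap. Blvra, the main adult biliverdin reductase, stood at 9.20 to 11.3 FPKM in KO and 7.39 to 8.86 FPKM in WT libraries. Bach1, the haem-binding repressor of Hmox1 and the ferritin genes, was spread over 1.82 to 10.7 FPKM in KO and 5.81 to 9.90 FPKM in WT libraries, KO 3 being lowest and KO 2 highest. Hmox2, the constitutive haem oxygenase, averaged 22.6 ± 3.81 FPKM in KO and 17.9 ± 1.85 FPKM in WT libraries (SD, n = 4 each).

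Tfrc, the transferrin receptor (ENSMUSG00000022797, chromosome 16, 32608920 to 32632794, plus strand), had a KO mean of 52.5% of the WT mean. It read 8.26, 9.56, 2.74 and 4.77 FPKM in KO 1 to 4 and 12.7, 12.5, 9.31 and 13.8 FPKM in WT 1 to 4. KO 3 and KO 4 were the low libraries, KO 1 lay below every WT library, and KO 2 lay just above WT 3. The log2 fold change of Tfrc was -0.93 (SE 0.32, limma adjusted p = 0.192). Set against the light chain of ferritin, Tfrc stood at 9.47, 13.7, 2.88 and 4.64 per 1000 FPKM of Ftl1 in KO 1 to 4 and at 25.5, 29.7, 18.9 and 23.2 in WT 1 to 4, so that each KO library lay below each WT library. This ratio is a description with no test. It joins a member with a lower and a member with a higher KO mean, so its lack of overlap adds no weight. The exon-union lengths were 6185 bp for Tfrc and 1340 bp for Ftl1, and the part of the length trend in the ratio was not tested.

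Slc11a2, the divalent metal transporter DMT1 (ENSMUSG00000023030, chromosome 15, 100387898 to 100425072, minus strand), read 6.92, 10.7, 8.48 and 12.1 FPKM in KO 1 to 4 and 11.5, 8.81, 8.48 and 11.4 FPKM in WT 1 to 4. The groups overlapped, with KO 1 below and KO 4 above every WT library. Its log2 fold change was -0.08 with a 95% interval of -0.54 to 0.37 (limma adjusted p = 0.831), which leaves room for a moderate difference in either direction.

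Slc40a1, ferroportin (ENSMUSG00000025993, chromosome 1, 45908068 to 45926523, minus strand), read 6.01, 18.7, 3.06 and 5.31 FPKM in KO 1 to 4 and 13.3, 9.57, 7.52 and 15.2 FPKM in WT 1 to 4. KO 1, KO 3 and KO 4 lay below all WT libraries and KO 2 above all of them. The log2 fold change was -0.64 with a 95% interval of -1.62 to 0.34 (limma adjusted p = 0.418). Leaving out 1 library moved it between -1.09 without KO 2 (limma adjusted p = 0.0546) and -0.33 without KO 3 (limma adjusted p = 0.710). KO 2 was also the library with the highest summed macrophage markers, at 1767 FPKM, and WT 1, at 1066 FPKM, had the second highest WT level of Slc40a1, below WT 4, the lowest in macrophage markers without Cd14; the part of macrophage RNA in the Slc40a1 values was not tested. In the mean Slc40a1 lay on the other side of 0 from the ferritins, with an interval that spans 0. The 5′ UTR element they have in common acts on translation, which these values do not measure.

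Around uptake and export, 14 of 19 listed genes of iron uptake and its regulators were measured, 5 higher and 9 lower in KO means (44.5% of all genes were higher). Limma's test over all genes was passed by 0 (1 at an unadjusted p below 0.05, against 19.2% of all genes). That gene was Neo1, neogenin, which binds hemojuvelin, at 7.50 to 13.3 FPKM in KO and 16.1 to 18.1 FPKM in WT libraries. Steap3, a ferrireductase of endosomes, was at 0.513 to 2.25 FPKM in KO and 1.32 to 3.63 FPKM in WT libraries, and Mcoln1, a lysosomal channel that passes ferrous iron, at 6.84 to 8.57 FPKM in KO and 6.21 to 7.17 FPKM in WT libraries; both overlapped. Transferrin and hepcidin themselves (Tf and Hamp) were not among the genes analysed here. Of the ferroxidases that work beside ferroportin, Heph was at 0.758, 2.29, 0.598 and 1.16 FPKM in KO 1 to 4 and 2.86, 3.51, 2.26 and 3.94 FPKM in WT 1 to 4 (log2 fold change -0.95, SE 0.25, limma adjusted p = 0.149), with KO 2 just above WT 3. Cp, ceruloplasmin, spread from 17.1 to 89.4 FPKM in KO and 29.0 to 109.1 FPKM in WT libraries.

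Ncoa4, which delivers ferritin to lysosomes for the release of its iron (ENSMUSG00000056234, chromosome 14, 32159865 to 32179855, plus strand), read 6.61, 9.10, 4.52 and 4.59 FPKM in KO 1 to 4 and 7.75, 7.10, 7.16 and 7.17 FPKM in WT 1 to 4. KO 2 lay above and the other KO libraries below the narrow WT range. The log2 fold change was -0.25 with a 95% interval of -0.73 to 0.24 (limma adjusted p = 0.523). The pseudogene Gm6768 aligns to Ncoa4 at 95% identity or more and is also in the table, so some Ncoa4 reads may be shared. Of the 13 lysosomal and autophagy genes of ferritin turnover, all measured, 10 had higher and 3 lower KO means (44.5% of all genes were higher). None of the 13 passed limma's test over all genes (4 at an unadjusted p below 0.05, all higher, against 19.2% of all genes). Among them Gabarap, a membrane tag of autophagosomes, was at 174.7 to 242.3 FPKM in KO and 129.8 to 140.8 FPKM in WT libraries without overlap. Ctsb, the lysosomal protease cathepsin B, was at 150.6 to 301.3 FPKM in KO and 103.0 to 191.4 FPKM in WT libraries, and KO 2 and WT 1, the libraries with the highest macrophage sum of each group, were at the top; the part of macrophage RNA in the Ctsb values was not tested.

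The iron regulatory proteins differed from each other. Ireb2, IRP2, whose protein is degraded when iron is plentiful (ENSMUSG00000032293, chromosome 9, 54863789 to 54912530, plus strand), read 14.3, 16.1, 3.00 and 6.61 FPKM in KO 1 to 4 and 17.7, 17.5, 14.7 and 18.8 FPKM in WT 1 to 4. KO 1 and KO 2 were near the WT range and KO 3 and KO 4 far below it. The log2 fold change was -0.94 with a 95% interval of -1.86 to -0.02 (limma adjusted p = 0.255).

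Aco1, IRP1, is a cytosolic aconitase when it holds an iron-sulfur cluster and an RNA-binding protein when it does not (ENSMUSG00000028405, chromosome 4, 40143081 to 40198338, plus strand). It read 17.9, 27.8, 34.5 and 35.2 FPKM in KO 1 to 4 and 23.8, 29.1, 29.7 and 33.2 FPKM in WT 1 to 4. KO 1 was the lowest of the 8 libraries and KO 3 and KO 4 the highest, so Aco1 did not share the low values of Ireb2 in KO 3 and KO 4. The log2 fold change of Aco1 was -0.04 with a 95% interval of -0.55 to 0.47 (limma adjusted p = 0.929). The ratio of Aco1 to Ireb2 FPKM was 1.25, 1.73, 11.5 and 5.32 in KO 1 to 4 and 1.35, 1.66, 2.02 and 1.77 in WT 1 to 4, with KO 3 and KO 4 apart from the other 6 libraries.

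**Figure D2:**
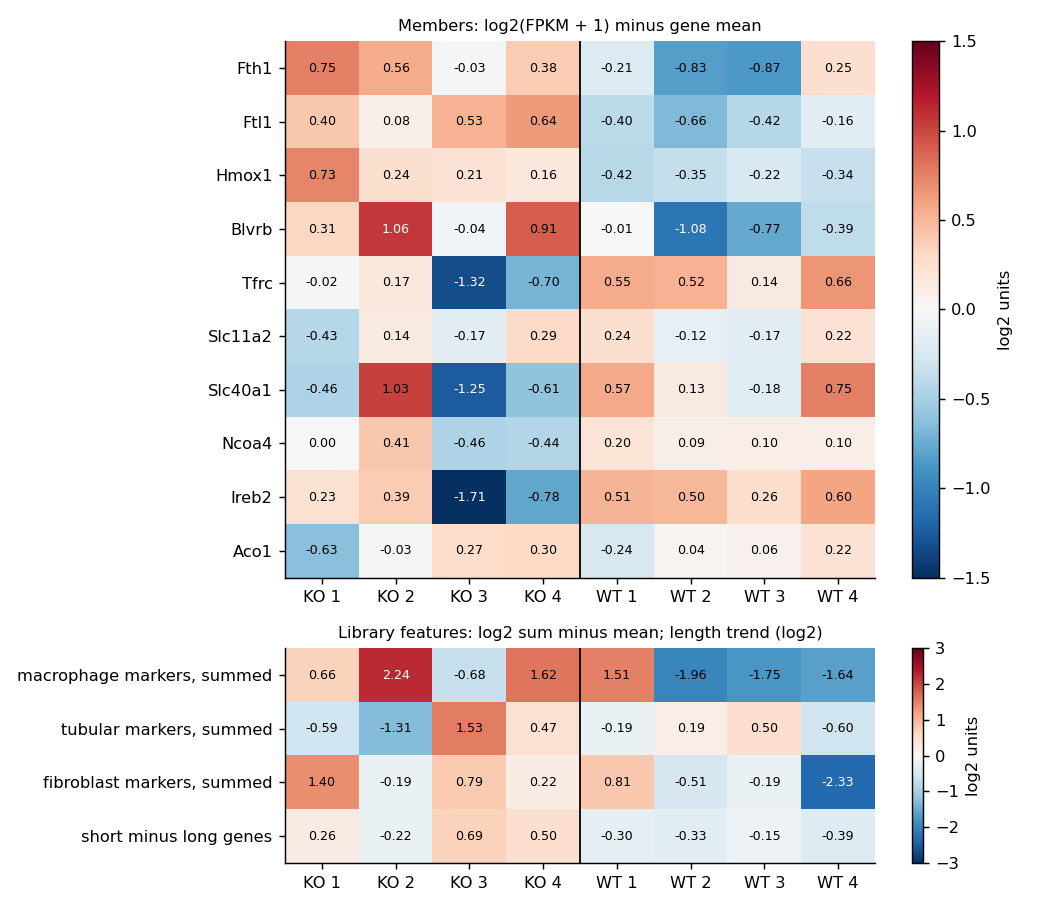
Upper panel, log2(FPKM + 1) of each member minus its mean over the 8 libraries; lower panel, summed markers of 3 cell types (log2 sum minus mean) and the median deviation of short minus long genes (log2). Columns are libraries, KO left of WT. KO 3 and KO 4 are low for Tfrc, Slc40a1, Ncoa4 and Ireb2 and have the highest short-minus-long values, 0.69 and 0.50. The fibroblast sum is mostly Acta2.

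Gene length ran with the direction of the members. The 4 members with higher KO means have exon-union lengths of 1340 to 3469 bp in GENCODE M21, and the 6 with lower means 4496 to 9479 bp, on either side of the median of 3953.5 bp over all genes. After each library was corrected for trends in gene length and GC content, Tfrc stood at a log2 fold change of -0.53 (SE 0.13, limma adjusted p = 0.120) and Ireb2 at -0.36 (SE 0.15, limma adjusted p = 0.218), both nearer to 0 than before. Slc40a1 then stood at -0.11, and Ncoa4 turned to 0.23. Ftl1 and Hmox1 had 0.41 and 0.32 in that fit, while Fth1 (0.76) and Blvrb (0.89) moved less. The Fth1 value rests on the GENCODE M21 length of 3469 bp, which may not be the length the authors used. With the length of the first-numbered transcript in place of the exon union, an alternative added after seeing the data, Fth1 stood at 0.56 and Tfrc at -0.37. None of the 10 was called by limma in either fit (0.0142% of all genes called in each).

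The comparison within male libraries, KO 3 and KO 4 against the 4 WT, called 6 of the 10 members, 2 higher and 4 lower, where 44.4% of all genes were called (17.6% higher and 26.7% lower). Ftl1 (0.99, SE 0.20, limma adjusted p = 0.00941) and Hmox1 (0.52, SE 0.10, limma adjusted p = 0.00727) were higher, each on the log2 scale. Tfrc (-1.48, limma adjusted p = 0.00403), Slc40a1 (-1.25, limma adjusted p = 0.0168), Ncoa4 (-0.58, limma adjusted p = 0.00584) and Ireb2 (-1.71, limma adjusted p = 0.00395) were lower. Fth1, at 0.59, and Blvrb, at 1.00, had limma adjusted p-values of 0.240 and 0.0687. These are the same 2 KO libraries that stand apart by the balance of short and long genes. With sex as a covariate limma called 5 members where 34.2% of all genes were called, and limma-voom on the recovered reads with sample weights called 8 where 53.1% were. Those 8 include Fth1, whose reads rest on the GENCODE M21 length. Without KO 2 limma called Ftl1 alone (8.05% of all genes). The other fits with all 8 libraries called none, with 0.00707% to 0.0998% of all genes called (0.0212% at a pseudocount of 0.1 and 0.0495% by limma-voom without weights).

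Without KO 3 and KO 4, the female KO 1 and KO 2 against the male WT libraries gave log2 fold changes of 1.07 for Fth1, 0.65 for Ftl1, 0.82 for Hmox1 and 1.25 for Blvrb, none called by limma (0 of 10 members; 14 genes, 0.099% of all genes). In that fit Tfrc stood at -0.39 (SE 0.18), Ireb2 at -0.16 (SE 0.15), Slc40a1 at -0.03 (SE 0.44) and Ncoa4 at 0.08 (SE 0.16). Fth1, Ftl1, Hmox1 and Blvrb thus lay above 0 with either pair of KO libraries, and the lower means of Ireb2 and Ncoa4 came mostly from KO 3 and KO 4. For Slc40a1 the value near 0 joined a low KO 1, at 6.01 FPKM, and a high KO 2, at 18.7 FPKM. Sex and genotype cannot be told apart for KO 1 and KO 2, because no WT library was female.

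**Figure D3:**
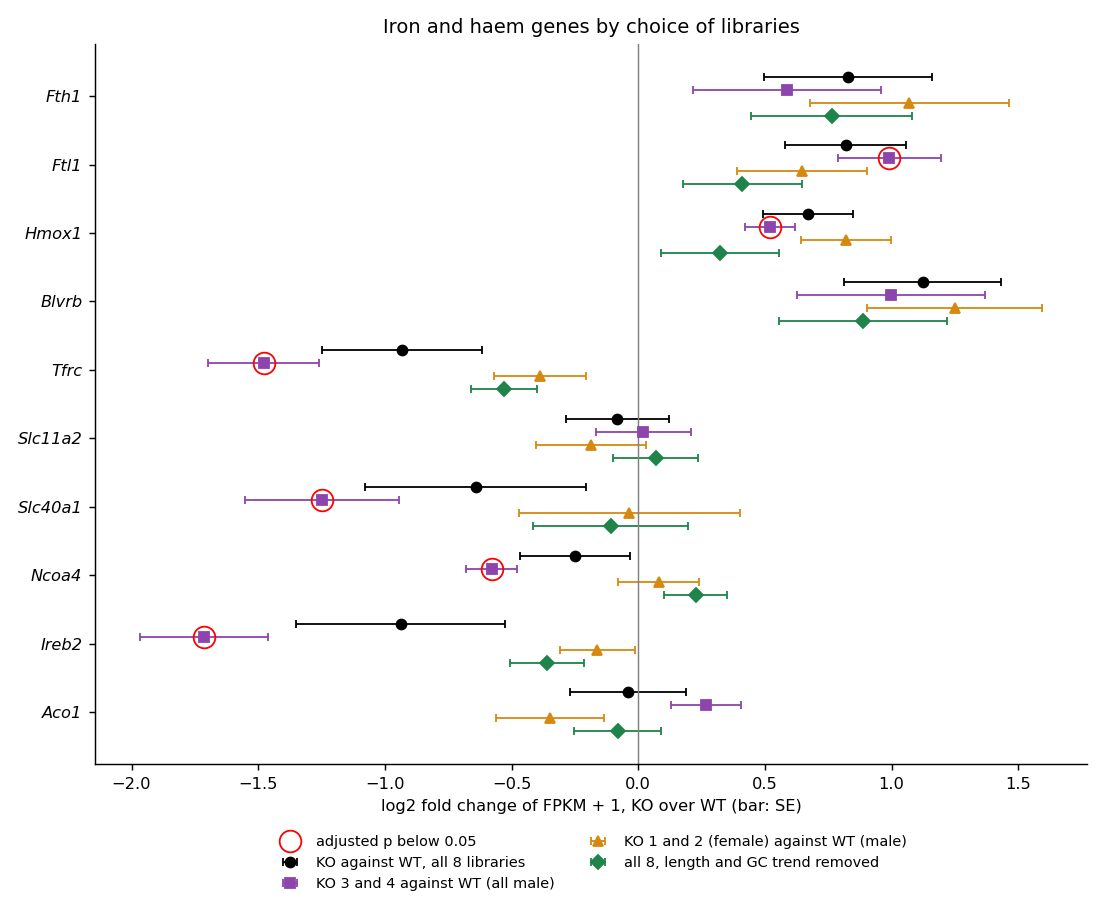
Log2 fold change of FPKM + 1, KO over WT (x axis; bars are the SE from limma), of the 10 members (y axis) with all 8 libraries, with KO 3 and KO 4 alone, with KO 1 and KO 2 alone, and after removal of length and GC trends; red rings mark an adjusted p below 0.05. The rings fall on 6 members, all in the comparison of male libraries, and Ireb2 lies at -1.71 with KO 3 and KO 4 and at -0.16 with KO 1 and KO 2.

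Iron inside the cell is passed on by chaperones and used mainly for iron-sulfur clusters and haem. Of 10 chaperone and sensing genes, all measured, 4 had higher and 6 lower KO means (44.5% of all genes were higher). None of the 10 passed limma's test over all genes (3 at an unadjusted p below 0.05, 2 higher and 1 lower, against 19.2% of all genes). Pcbp1, the poly(C)-binding protein that hands iron to ferritin, averaged 171.5 ± 49.0 FPKM in KO and 149.4 ± 5.59 FPKM in WT libraries (SD, n = 4 each), and Fbxl5, the ubiquitin ligase subunit that marks IRP2 for degradation, 7.48 ± 2.06 FPKM in KO and 9.76 ± 1.76 FPKM in WT libraries. Bola2 and Glrx3, which form a cytosolic iron-sulfur chaperone complex, stood at 6.60 to 16.9 and 36.9 to 78.2 FPKM in KO libraries and at 6.03 to 7.36 and 24.4 to 45.4 FPKM in WT libraries, with overlap.

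Of the genes of mitochondrial iron and iron-sulfur cluster assembly 27 of 29 were measured, 20 higher and 7 lower in KO means (44.5% of all genes were higher). Their median log2 fold change was 0.19, and 0 passed limma's test over all genes (6 at an unadjusted p below 0.05, 5 higher and 1 lower, against 19.2% of all genes). Iscu, the scaffold on which clusters are built, read 51.6, 32.9, 40.7 and 37.6 FPKM in KO 1 to 4 and 21.3, 19.5, 21.5 and 23.8 FPKM in WT 1 to 4 without overlap (log2 fold change 0.87, SE 0.17, limma adjusted p = 0.0996). Glrx5, which passes clusters on from the scaffold, read 25.2, 16.5, 40.8 and 35.4 FPKM in KO 1 to 4 and 14.9, 13.3, 16.2 and 13.7 FPKM in WT 1 to 4, KO 2 lying just above the highest WT library. Slc25a37, mitoferrin 1, a mitochondrial iron importer, had a lower mean, at 3.16 to 11.1 FPKM in KO and 8.47 to 16.4 FPKM in WT libraries, with overlap. The related Slc25a28 averaged 9.91 FPKM in KO and 9.53 FPKM in WT libraries (log2 fold change 0.03). The median of the list was 0.07 with the length and GC trend removed and 0.08 without KO 3 and KO 4.

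In haem synthesis 12 of 14 listed genes were measured, 10 higher and 2 lower in KO means (44.5% of all genes were higher). Their median log2 fold change was 0.32, and 0 passed limma's test over all genes (5 at an unadjusted p below 0.05, 4 higher and 1 lower, against 19.2% of all genes). Alas1, the rate-limiting enzyme outside erythroid cells, read 11.4, 11.4, 13.8 and 13.2 FPKM in KO 1 to 4 and 8.77, 8.90, 9.44 and 10.5 FPKM in WT 1 to 4, without overlap. Urod, uroporphyrinogen decarboxylase, was at 18.4 to 27.3 FPKM in KO and 13.0 to 14.8 FPKM in WT libraries, again without overlap. Cpox, the oxidase of the next step, lay the other way without overlap at 16.5 to 23.1 FPKM in KO and 25.2 to 28.8 FPKM in WT libraries. The list's median was 0.24 with the length and GC trend removed and 0.22 without KO 3 and KO 4.

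Hmox1, Fth1 and Ftl1 are known targets of Nrf2, the antioxidant transcription factor. Of 16 genes of Nrf2 and its targets outside iron handling, all measured, 13 had higher and 3 lower KO means (44.5% of all genes were higher). Their median log2 fold change was 0.34, and 0 passed limma's test over all genes (8 at an unadjusted p below 0.05, 6 higher and 2 lower, against 19.2% of all genes). Among male libraries 10 were higher and 6 lower, and 11 were higher and 5 lower without KO 3 and KO 4. The 4 of lowest p were Cbr3, Pgd, Taldo1 and Tkt, of which Cbr3 and Pgd were higher without overlap. Nqo1, Gclc, Gclm and Txnrd1 overlapped between groups (log2 fold changes 0.69, 0.38, 0.29 and 0.10). The messenger of Nrf2 itself, Nfe2l2, was lower in the mean, at 38.7 ± 6.25 FPKM in KO and 54.7 ± 7.21 FPKM in WT libraries (SD, n = 4 each). The part of Nrf2 in the differences of Hmox1, Fth1 and Ftl1 was not tested.

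**Figure D4:**
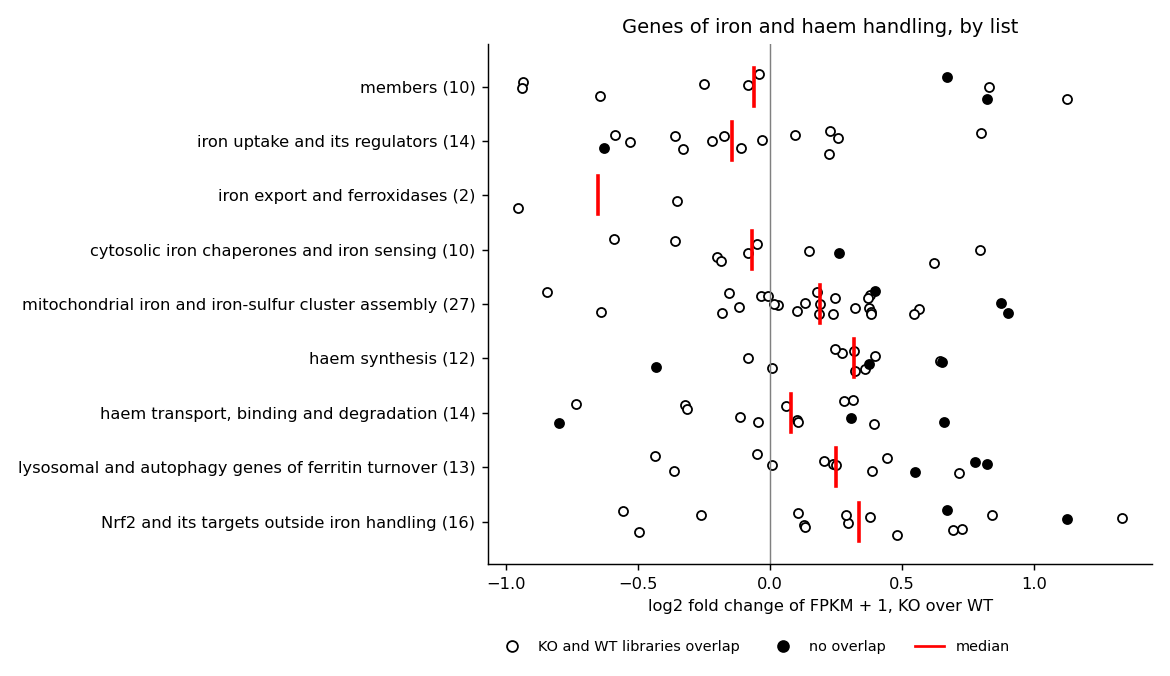
Log2 fold change of FPKM + 1, KO over WT (x axis), of each measured gene in the 10 members and in 8 lists of iron, haem and related genes (y axis, number of genes in brackets); filled points are genes whose KO and WT libraries do not overlap and red lines are medians. The medians of haem synthesis (0.32) and Nrf2 targets (0.34) lie above 0 and that of the 10 members at -0.06.

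By level, the 10 genes spanned from ferritin to Blvrb. Means over the 8 libraries, in FPKM per the authors' gene lengths, were 962.0 for Fth1 and 694.4 for Ftl1, which overlapped, then 78.5 for Hmox1 and 28.9 for Aco1, which did not overlap each other or ferritin. The lowest Aco1 value, 17.9, lay under the highest Ireb2 value, 18.8. Ireb2 (13.6), Slc40a1 (9.84), Slc11a2 (9.80), Tfrc (9.20) and Ncoa4 (6.75) overlapped each other, and Blvrb, with the lowest mean of 3.70 FPKM, overlapped Ncoa4.

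The genes with the most similar profiles over the 8 libraries were named by the smallest root-mean-square difference of centred log2(FPKM + 1) values, among 12070 genes with a mean of at least 1 FPKM. For Ireb2 these were Psme4, Bmpr1a and Hipk3 (0.0651, 0.0859 and 0.0887), against a spread of 0.764 of Ireb2 about its own mean. Psph, Ndufs8 and Rab29 were nearest to Ftl1 (0.101, 0.121 and 0.121; spread of Ftl1 0.454). Fth1 and Blvrb had no gene as near, the closest being Angpt4 to Fth1 at 0.169 and Rai2 to Blvrb at 0.186.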

How the data were processed

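The 8 RNA-seq libraries of cultured cells were analysed. The authors deposited 1 value per gene and library in a table with 14145 genes. The deposited values are named raw counts but carry decimals, and from the values themselves the unit is FPKM: multiplied by the exon-union length in GENCODE M21, which holds 14134 of the genes, they fall on whole multiples of 1 step per library, within 0.05 read for 95.0% to 95.5% of genes with up to 200 reads. The steps give the depths. FastQC, STAR 2.4.1d, DESeq2 and GRCm38 are named in the submitters' processing notes; no source used names the counter, annotation or row filter. Per gene, a log2 fold change with raw and adjusted p-value was deposited too. No value column lacked a sample (0).

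Log2(FPKM + 1) of all genes was fitted with limma 3.58.1 (R 4.3.3) with a variance trend, genotype as the only term and a threshold of 0.05. The procedure was tested on simulated data with noise drawn independently per gene and library. That simulation held no length trend, sex difference or other effect shared by the genes of a library, so it does not cover these. Alternatives were pseudocounts 0.1 and 0.5, an FPKM minimum of 1 in 4 libraries, median-ratio scaling, removal of length and GC trends (lowess, span 0.3), a replicate block, a sex covariate, subsets of libraries, no variance trend and limma-voom on recovered reads with and without sample weights. Near-identical copies were found with blastn 2.17.0. Lists gave up to 4 named genes each by lowest p in these data, so a lack of overlap in them adds no weight (11.6% of all genes did not overlap). Other listed genes named here (Hmox2, Pcbp1, Fbxl5, Slc25a28, Nfe2l2, Nqo1, Gclc, Gclm, Txnrd1) were chosen for their role. Members and lists were chosen with earlier results of these data known.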

Additional observations from a re-analysis of the deposited data

Results flagged for a closer look

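A single library stood far from the other 3 of its group for 5 of 82 gene and group combinations examined, where chance gives about 1 in 20. For Hmox1 the KO 1 value of 126.3 FPKM was separated from the next KO library by 0.885 of the KO range. For Ncoa4 the WT 1 value of 7.75 FPKM was separated by 0.892 of a narrow WT range. Tmprss6, a protease that lowers hepcidin, was high in WT 4 (2.90 FPKM, gap 0.855 of the range), and so was Slc25a37 (16.4 FPKM, gap 0.922). Herc2, a ubiquitin ligase, was high in KO 2 at 9.46 FPKM (gap 0.880 of the range).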

How the results depend on the processing

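None of the 10 members was called with any pseudocount, filter, scaling, trend removal or block tried, but 5 were with a sex covariate, 6 among male libraries and 8 by limma-voom with sample weights, and leaving out 1 library gave 0 to 1 (Ftl1 without KO 2). All genes called numbered 3 with pseudocount 0.1, 2 with the length and GC trend removed by either length, 7 by limma-voom on recovered reads, 4838 with the sex covariate, 6275 among male libraries, 7502 by limma-voom with sample weights, and 1 to 1139 leaving out 1 library. Libraries of the same replicate number were not consistently alike (correlations of deviations 0.0461, -0.212, 0.598 and -0.0492, best match with the own number for 1 of 4). Whether they were prepared in pairs cannot be told from this. With the replicate block 1 gene and 0 members were called. The members' median was 0.15 with the trend removed, 0.14 with the sex covariate and among male libraries, 0.25 by limma-voom with sample weights, and -0.14 to 0.10 leaving out 1 library. Fth1, Ftl1, Hmox1, Blvrb, Tfrc, Slc40a1 and Ireb2 kept their direction in 21 alternatives. Slc11a2 turned to 0.069 (trend removed), 0.020 (sex covariate; male libraries) and 0.27 (weighted voom), with -0.19 to 0.046 leaving out 1 library. Ncoa4 turned to 0.23 and 0.023 (trend removed, exon-union and transcript length) and 0.081 (without KO 3 and KO 4). Aco1 turned to 0.037 (median-ratio scaling), 0.031 (trend removed, transcript length), 0.27 (sex covariate; male libraries) and 0.23 (weighted voom), with -0.15 to 0.16 leaving out 1 library. Cp turned to 0.21 and 0.091 (trend removed) and 0.53 (weighted voom), with -0.70 to 0.12 leaving out 1 library, and Herc2 to 0.14 (transcript length). The cause was not tested. Depth limits Blvrb most, at 46 reads in WT 2.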
